A study of Mus musculus with 12 samples.

Results

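The genes described are the 5 NF-kB subunits (Rela, Relb, Rel, Nfkb1 and Nfkb2) and 5 genes that restrain or tune the pathway (Nfkbia, Nfkbib, Nfkbie, Tnfaip3 and Birc3), 10 in all, chosen by name from 55414 gene IDs. All 10 had enough reads to be tested, among 11332 such genes (edgeR's filterByExpr). NF-kB transcription factors are dimers of the Rel family. In resting cells, inhibitors of the IkB family hold them in the cytoplasm. Signals from receptors for TNF, interleukin-1 and lymphotoxin activate the IkB kinase complex, the inhibitor is degraded, and the freed dimer switches on target genes, among them several of its own inhibitors, so that levels of Nfkbia and Tnfaip3 transcripts are commonly read as feedback. In a slower branch, the precursor encoded by Nfkb2 is processed and pairs with RelB.

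The measurements were RNA-seq counts per gene from EO771-tdT-LM2, a single mouse breast cancer cell line labelled wild type. The cells spent 30 minutes in glucose-deprived medium (10 mg/dl glucose, 1% FBS) and were then treated for 24 hours in the same medium. There were 3 libraries of each of 4 groups. One group received 0.2 µg/mL GDNF, a neurotrophic factor, together with 2.5 µg/mL anti-NCAM1, an antibody to a neural adhesion protein that also binds GDNF. A second received the GDNF with 2.5 µg/mL IgG, another 2.5 µg/mL anti-NCAM1 with 0.1% BSA, and the controls 0.1% BSA with 2.5 µg/mL IgG. The labels thus name BSA where GDNF was left out and IgG where the antibody was left out, and neither for the combination. An effect of GDNF therefore cannot be told apart from one of leaving out BSA. The same holds for the antibody and IgG. The libraries are labelled as triplicates with no word on independent experiments, so p-values measure only the spread between these libraries, which may be technical.

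Library totals ran from 5616398 to 8093754 counts, so that 3 counts corresponded to 0.371 to 0.534 CPM (counts scaled to library size, by TMM for the levels given below unless stated). GDNF replicate 3 stood apart. Transcripts of the mitochondrial genome took 10.2% of its counts, against 4.11% to 5.29% in the other 11 libraries. Its levels fell with GC content by 0.36 on the log2 scale per 10 percentage points, against slopes of -0.16 to 0.13 in the others. It held the lowest value of the 12 libraries for 27.9% of all tested genes and the highest for 28.3%. Among the NF-kB genes it was the lowest for Relb, Nfkb2, Nfkbia and Nfkbie. Estimates for GDNF against control, for the combination against GDNF and for the interaction are therefore given without it as well, for the genes described. In bulk cultures, fewer expressing cells and less RNA per cell cannot be told apart. Of 12 epithelial and mammary markers, 4 were tested, Krt8 (3123 to 4523 counts), Epcam (69 to 143), Erbb3 (25 to 53) and Krt14 (11 to 22). A further 5 were listed at 0 in every library, with Cdh1 at 0 to 4 and Krt18 at 0 to 1 counts. Scaled by total counts without TMM, this list summed to 578 to 600 CPM in the combination and 486 to 584 with GDNF. It was 538 to 624 with anti-NCAM1 and 527 to 580 in controls. Of 6 fibroblast markers 4 were tested, Pdgfra (1294 to 1918 counts), Col1a1 (1592 to 2987), Col3a1 (826 to 1508) and Pdgfrb (244 to 372). Dcn had 0 to 1 counts and Lum was at 0. On the same scale the fibroblast list summed to 735 to 760 CPM in the combination and 616 to 744 with GDNF. It was 670 to 798 with anti-NCAM1 and 766 to 838 in controls. The part of either list in the results was not tested. The leukocyte markers Ptprc, Itgam and Cd3e had at most 1 count in any library and Adgre1 was at 0, while Cd68 (38 to 53 counts) and Lyz2 (6 to 18 counts) were detected.

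The promoters of 4 of the 10 genes are printed because NF-kB is known to act on some of its own genes. Each runs 250 bases before to 50 bases after the annotated start, 5′ to 3′ on the gene's strand, from RefSeq on build GRCm38.p6. Capitals mark matches on either strand to the NF-kB consensus (GGG, a purine, any base, A or T, a pair of pyrimidines, then CC), and overlapping matches are merged. The Nfkbia, Nfkb2 and Tnfaip3 promoters are of the feedback inhibitor, the precursor and the ubiquitin-editing inhibitor described in the results. The Rela promoter holds no match and is given for contrast. For each gene 1 promoter is printed; another Tnfaip3 promoter, with no match, and 2 further Nfkb2 promoters, both with matches, are left out.
Nfkbia chr12:55492598-55492897, minus strand: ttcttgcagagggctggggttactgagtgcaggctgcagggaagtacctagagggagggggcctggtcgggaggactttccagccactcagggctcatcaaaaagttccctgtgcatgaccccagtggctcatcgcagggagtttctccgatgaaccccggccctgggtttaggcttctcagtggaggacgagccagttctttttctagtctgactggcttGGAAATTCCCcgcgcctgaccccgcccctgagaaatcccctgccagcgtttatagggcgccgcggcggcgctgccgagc
Nfkb2 chr19:46304487-46304786, plus strand: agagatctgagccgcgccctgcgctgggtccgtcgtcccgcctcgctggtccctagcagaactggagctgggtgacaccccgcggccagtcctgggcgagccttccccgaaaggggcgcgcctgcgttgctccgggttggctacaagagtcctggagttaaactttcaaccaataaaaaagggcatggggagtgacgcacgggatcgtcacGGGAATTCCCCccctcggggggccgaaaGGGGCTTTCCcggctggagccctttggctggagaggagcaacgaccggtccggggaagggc
Tnfaip3 chr10:19015361-19015660, minus strand: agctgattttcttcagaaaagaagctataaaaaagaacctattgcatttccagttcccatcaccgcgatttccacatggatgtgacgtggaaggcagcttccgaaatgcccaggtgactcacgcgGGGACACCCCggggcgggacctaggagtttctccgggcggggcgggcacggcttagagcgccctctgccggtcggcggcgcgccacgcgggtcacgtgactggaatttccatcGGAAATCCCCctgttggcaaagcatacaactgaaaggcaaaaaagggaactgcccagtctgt
Rela chr19:5637291-5637590, plus strand: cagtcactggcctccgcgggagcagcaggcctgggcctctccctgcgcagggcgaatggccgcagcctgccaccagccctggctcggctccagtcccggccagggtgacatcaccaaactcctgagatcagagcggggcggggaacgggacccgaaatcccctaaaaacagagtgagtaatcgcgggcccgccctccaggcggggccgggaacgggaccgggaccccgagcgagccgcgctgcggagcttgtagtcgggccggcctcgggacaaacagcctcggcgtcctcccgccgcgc

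In Nfkbia the match, read on the opposite strand as GGGAATTTCC, lay at positions -29 to -20, counted from 0 at the start. In Nfkb2, GGGAATTCCC lay at -39 to -30 and GGGGCTTTCC at -11 to -2. In Tnfaip3, GGGACACCCC lay at -125 to -116 and GGGGATTTCC, on the opposite strand, at -12 to -3. RefSeq promoters were matched for 8 of the 10 genes, with 11 promoters in all, and 7 of these, from Nfkbia, Nfkb2, Nfkbie, Rel and Tnfaip3, held the consensus. The consensus was found in 4.51% of 32851 mouse promoters of the same length. A match describes letters and was not tested as a binding site.

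Levels between genes were compared as CPM divided by the length in kilobases of the longest coding transcript. In control cells Rela, the main activating subunit, stood highest at 24.1 ± 1.01 CPM per kilobase (SD, n = 3). Nfkb1, whose product is processed to the usual partner of RelA, followed at 18.7 ± 0.629. Nfkb2, Nfkbia and Nfkbib were at 12.2 ± 0.833, 11.2 ± 0.181 and 10.3 ± 0.982 CPM per kilobase, in separate ranges that nearly met. Relb, at 5.18 ± 0.483, and Birc3, an inhibitor of apoptosis and ubiquitin ligase of TNF signalling, at 5.13 ± 0.388 CPM per kilobase, overlapped. Rel, Nfkbie and Tnfaip3 were lowest, at 0.944 ± 0.135, 0.617 ± 0.194 and 0.471 ± 0.137 CPM per kilobase, with neighbouring ranges that overlapped. The order rests on the length used: with the median transcript length, Birc3 ranked 3 and Nfkb2 ranked 5. Summed over the 5 subunits, the level was 50.9 to 64.2 CPM per kilobase in all 12 libraries, and over the 3 IkB genes 15.7 to 22.7.

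**Figure D1:**
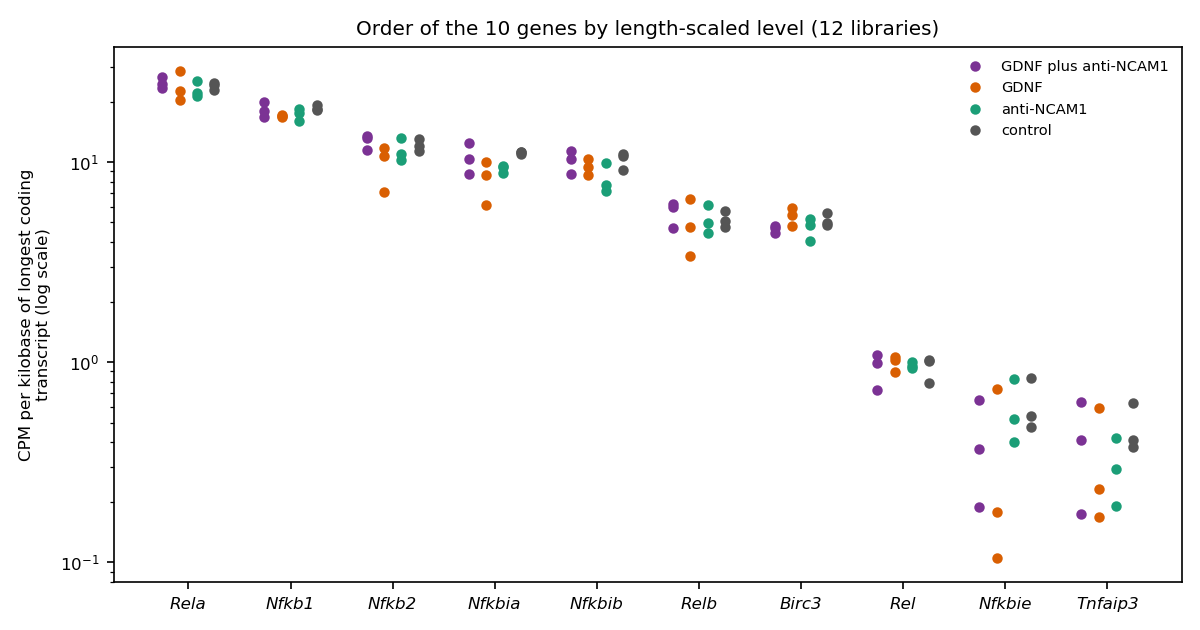
CPM per kilobase of the longest coding transcript (log axis) for the 10 genes in the 12 libraries, ordered by the control mean, 1 point a library. Rela (24.1 in controls) and Nfkb1 (18.7) lead, and Rel (0.944), Nfkbie (0.617) and Tnfaip3 (0.471) are lowest.

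No NF-kB gene passed the test in any of the 6 comparisons fitted by edgeR's quasi-likelihood test (adjusted p threshold 0.05), and nor did any of the 11332 tested genes (0%). The smallest adjusted p over all genes was 0.165 for GDNF against control, 0.853 for anti-NCAM1 against control, 0.99957 for the combination against control, 0.331 for the combination against GDNF, 0.999 for the combination against anti-NCAM1 and 0.240 for the interaction. At an unadjusted p under 0.05 the edgeR calls were 2303 genes (20.3%) for GDNF against control, 599 (5.29%) for anti-NCAM1 against control, 221 (1.95%) for the combination against control, 1582 (14%) for the combination against GDNF, 284 (2.51%) for the combination against anti-NCAM1 and 1900 (16.8%) for the interaction. In the same order, 1, 0, 0, 2, 0 and 2 of the 10 NF-kB genes had an unadjusted p under 0.05 by edgeR, 1, 0, 0, 1, 0 and 2 by DESeq2 and 3, 0, 0, 2, 0 and 2 by limma-voom. The shares over all tested genes were 17.3%, 3.88%, 1.01%, 11.9%, 1.53% and 14.6% by DESeq2. By limma-voom they were 21.6%, 5.34%, 1.87%, 14.3%, 2.26% and 17.3%. DESeq2 called 0 NF-kB genes in all 6, with the adjusted p of all 10 missing in GDNF against control, where it called 31 genes. limma-voom called 0 NF-kB genes as well. The comparisons share libraries, controls among them, so they are set side by side rather than counted as independent.

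The 3 IkB genes, which hold the dimers in the cytoplasm, summed to 21.1 ± 0.526 CPM per kilobase in the combination, 18.1 ± 2.07 with GDNF, 18.1 ± 1.58 with anti-NCAM1 and 22.0 ± 0.959 in controls (SD, n = 3 each). All GDNF and all anti-NCAM1 sums lay below all control sums, with highest values of 19.35 and 19.97 against a lowest control sum of 20.9. Of the 3 genes only Nfkbia lay wholly below controls by itself, in both comparisons. Among single tested genes 7.76% lay wholly below controls with GDNF and 7.85% with anti-NCAM1, and no such share was computed for sums. The 5 subunits summed to 62.5 ± 1.48 in the combination, 56.7 ± 6.45 with GDNF, 58.0 ± 5.51 with anti-NCAM1 and 61.1 ± 2.72 in controls (SD, n = 3 each), and these ranges overlapped. Per length, Nfkbia stood at 0.372, 0.391 and 0.508 of Rela in the combination, 0.303, 0.487 and 0.269 with GDNF, 0.397, 0.375 and 0.448 with anti-NCAM1 and 0.487, 0.465 and 0.439 in controls. GDNF replicates 1 and 2 alone had IkB sums of 19.2 and 19.35 and subunit sums of 63.6 and 55.5. No test was made on these sums and ratios.

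The libraries themselves differed. In GDNF replicate 3, 9 of the 10 genes lay below their control mean, with a median log2 difference of -0.37, and in GDNF replicates 1 and 2 it was 5 and 7 of 10, with medians of -0.02 and -0.12. In anti-NCAM1 replicate 3 all 10 lay below their control mean, with a median of -0.22, and it held the lowest value of the 12 libraries for Nfkb1, Nfkbib and Birc3. Among combination libraries 5 or 6 of the 10 lay below.

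**Figure D2:**
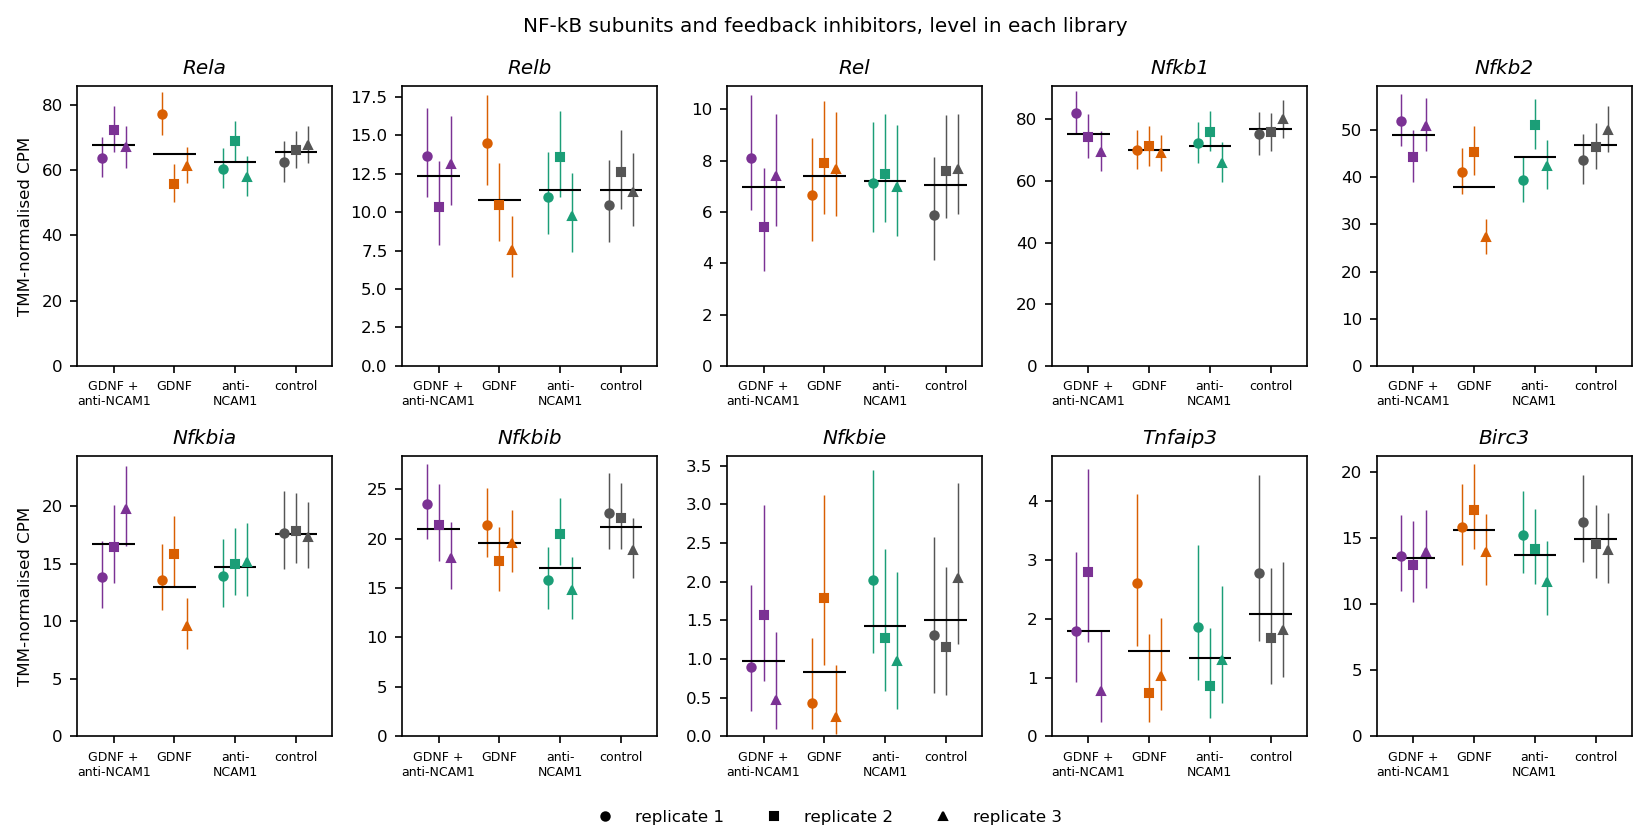
TMM-normalised CPM of each gene in each library, by group, with 95% Poisson bars that cover counting error only and a black line for the group mean of 3 libraries. For Nfkb2 and Nfkbia, GDNF replicate 3 (27.2 and 9.59 CPM) is the lowest of the 12 points.

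GDNF against control sets GDNF without BSA against 0.1% BSA without GDNF, both with IgG. Nfkbia, the IkB alpha gene, had 13.6, 15.8 and 9.59 CPM in GDNF libraries, against 17.7, 17.9 and 17.3 CPM in controls. All 3 GDNF libraries lay below all 3 controls, and replicate 3 was the lowest. The log2 fold change was -0.45 (SE 0.168, 95% interval -0.80 to -0.09, edgeR unadjusted p = 0.0170, adjusted p = 0.186, not passing). Without GDNF replicate 3 it was -0.27 (adjusted p = 0.509). Over the 22 alternatives tried, the estimate for Nfkbia ran from -0.62 to -0.21. Since the groups did not overlap, leaving out single libraries could hardly turn its sign.

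Nfkb2 had 41.1, 45.4 and 27.2 CPM in GDNF libraries, against 43.7, 46.5 and 50.1 CPM in controls. The groups overlapped, since GDNF replicate 2 lay above control replicate 1, and replicate 3 was far below the rest. The log2 fold change was -0.31 (SE 0.150, edgeR adjusted p = 0.253), and -0.12 without GDNF replicate 3. Exons of Nfkb2 overlap those of Psd and AC114539.1 on the opposite strand, which averaged 17.4 and 4.17 counts a library, and strand use in the counting is not given in the sources used here.

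Nfkb1 had 70.1, 71.2 and 68.9 CPM in GDNF libraries, against 75.3, 75.8 and 79.98 CPM in controls, with every GDNF library lower than every control (log2 fold change -0.14, SE 0.0824, edgeR adjusted p = 0.343, and -0.13 without GDNF replicate 3). Groups did not overlap, with GDNF lower, for 2 of the 10 genes (Nfkb1 and Nfkbia), and for 7.76% of all tested genes. Of the 10 genes 8 had a log2 fold change below 0, against 49.7% of all tested genes, with a median of -0.12 against 0.0021. With GDNF replicate 3 left out it was 6 of 10 with a median of -0.12, and with GDNF replicate 1 left out 8 of 10 with a median of -0.27.

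Rela had 77.3, 55.9 and 61.4 CPM in GDNF libraries, against 62.5, 66.1 and 67.8 CPM in controls. GDNF replicate 1 was the highest and replicate 2 the lowest of the 12 libraries, so the groups overlapped widely (log2 fold change -0.02, 95% interval -0.24 to 0.21, and 0.02 without GDNF replicate 3). Relb, with 14.5, 10.4 and 7.55 CPM in GDNF libraries, against 10.5, 12.6 and 11.3 in controls, had an estimate of -0.09 with all libraries and 0.11 without GDNF replicate 3. Relb encodes the partner of the processed Nfkb2 product. Rel, the subunit c-Rel, had 6.66, 7.90 and 7.68 CPM in GDNF libraries, against 5.89, 7.58 and 7.69 in controls. Its estimate was 0.06 (95% interval -0.33 to 0.45), and that for Birc3 was 0.07 (-0.22 to 0.36). Leaving out GDNF replicate 3 gave 0.02 and 0.14.

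Of the inhibitors, Nfkbib, the IkB beta gene, had 21.4, 17.7 and 19.6 CPM in GDNF libraries, against 22.6, 22.1 and 18.9 in controls (log2 fold change -0.11, interval -0.41 to 0.20, and -0.11 without GDNF replicate 3). Nfkbie, the IkB epsilon gene, had 3, 12 and 2 counts in GDNF libraries, against 8, 9 and 17 in controls. Tnfaip3, the ubiquitin-editing inhibitor, had 18, 5 and 8 counts in GDNF libraries, against 17, 13 and 15 in controls. Few counts made both intervals wide: -2.13 to 0.30 for Nfkbie and -1.503 to 0.524 for Tnfaip3 (log2). Without GDNF replicate 3 the estimates were -0.47 for Nfkbie and -0.28 for Tnfaip3, against -0.92 and -0.49 with it. For the other 8 genes the interval of the fold change lay within 2-fold either way. A p that missed the threshold does not show that a level was the same.

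**Figure D3:**
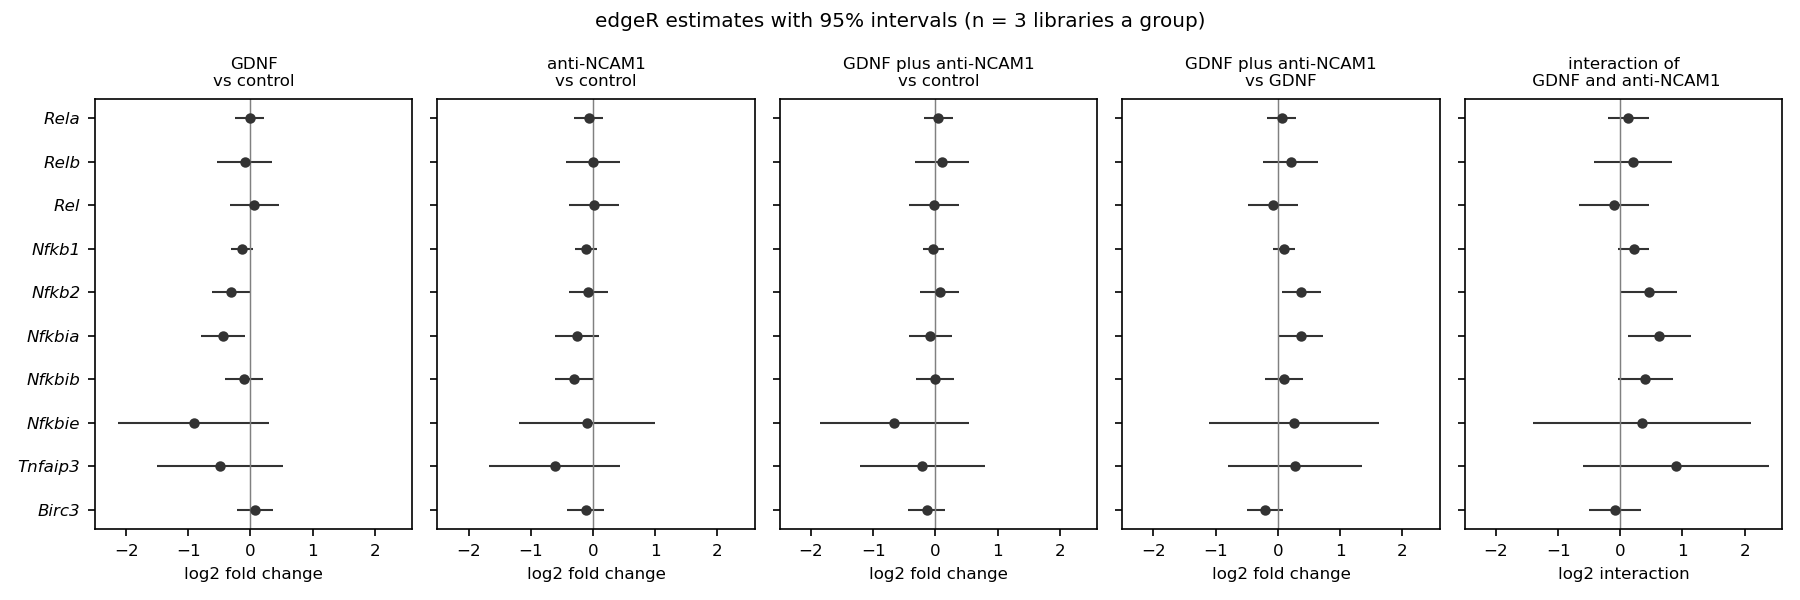
edgeR log2 fold changes (points) with 95% intervals (bars) for the 10 genes in 4 pairwise comparisons and the interaction, n = 3 libraries a group. For Nfkbia the interval excludes 0 for GDNF against control (-0.80 to -0.09), before any adjustment over genes.

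Anti-NCAM1 against control sets the antibody against IgG, both with 0.1% BSA and no GDNF. Nfkbia had 13.95, 14.99 and 15.1 CPM in anti-NCAM1 libraries, against 17.7, 17.9 and 17.3 CPM in controls, again with no overlap. Its log2 fold change was -0.26 (SE 0.167, edgeR adjusted p = 0.859). It was the only one of the 10 genes whose groups did not overlap, and anti-NCAM1 lay lower in 7.85% of all tested genes. Nfkbib had 15.8, 20.5 and 14.8 CPM in anti-NCAM1 libraries, against 22.6, 22.1 and 18.9 CPM in controls (log2 fold change -0.30, SE 0.148, edgeR adjusted p = 0.853). Replicate 2 of the antibody group lay inside the control range. Nfkbib shares 42 exon bases with the opposite-strand gene Sirt2, which averaged 547.5 counts a library. Tnfaip3 had 12, 6 and 8 counts in anti-NCAM1 libraries, against 17, 13 and 15 in controls, with a wide interval of -1.67 to 0.43 around a log2 fold change of -0.62. Rela, Nfkb1 and Nfkb2 were at -0.07, -0.11 and -0.08, Birc3 at -0.12, and Relb and Rel at 0.00 and 0.02. The median of the 10 genes was -0.10, with 8 below 0, against 48.9% of all tested genes below 0. It was -0.04 without anti-NCAM1 replicate 3, -0.06 without control replicate 3, -0.17 without anti-NCAM1 replicate 1 and -0.05 with the GC and length trend subtracted. In the main edgeR fit 0 of the 10 had an unadjusted p under 0.05 (5.29% of all tested genes). Without control replicate 3 it was 1 of 10 (3.98% of all tested genes).

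GDNF with anti-NCAM1 was next set against control. Nfkbia had 13.8, 16.4 and 19.8 CPM in the combination, against 17.7, 17.9 and 17.3 CPM in controls, and Nfkb2 had 51.9, 44.3 and 50.9 CPM, against 43.7, 46.5 and 50.1 in controls. The combination libraries spread on both sides of the controls for Nfkbia, whose log2 fold change was -0.08 (95% interval -0.43 to 0.27). Rela had 63.9, 72.4 and 67.0 CPM in the combination, against 62.5, 66.1 and 67.8 in controls, and Nfkbib 23.5, 21.3 and 18.1, against 22.6, 22.1 and 18.9. Both overlapped throughout, with estimates of 0.05 and -0.01. Nfkbie had 6, 9 and 3 counts in the combination, against 8, 9 and 17 in controls, with a log2 fold change of -0.66 and a wide interval of -1.86 to 0.54. Tnfaip3 was at -0.21 (-1.22 to 0.79). The median log2 fold change of the 10 genes was -0.03, with 7 below 0, against 48.3% of all tested genes. Birc3 was the one gene whose groups did not overlap, with 13.6, 12.9 and 13.9 CPM in the combination, against 16.2, 14.5 and 14.0 CPM in controls (log2 fold change -0.14, edgeR adjusted p = 0.99957), and 6.27% of all tested genes lay lower in the same way.

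The combination against GDNF alone gave positive estimates for 8 of the 10 genes (50.1% of all tested genes), with a median of 0.16. For Nfkb2 the log2 fold change was 0.38 (SE 0.151, edgeR adjusted p = 0.335) and for Nfkbia 0.37 (SE 0.172, edgeR adjusted p = 0.356). Without GDNF replicate 3 these were 0.19 and 0.18, and the median of the 10 genes was then 0.04 with 6 above 0, while without GDNF replicate 2 it was 0.08 with 6 above 0. With the GC and length trend subtracted from all 12 libraries, the median was 0.04 with 6 above 0. With the trend subtracted and GDNF replicate 3 left out, it was -0.002 with 5 above 0. Birc3 had 13.65, 12.94 and 13.89 CPM in the combination, against 15.78, 17.13 and 13.94 CPM in GDNF libraries, a narrow separation in the direction seen for 7.12% of all tested genes (log2 fold change -0.21, edgeR adjusted p = 0.469, and -0.28 without GDNF replicate 3). Against anti-NCAM1 alone the combination had a median of 0.11, with 7 of the 10 genes above 0 (50% of all tested genes), 0 of the 10 in groups that did not overlap (11.3% of all tested genes), and the highest estimate among the 8 genes with more than 20 counts in every library was Nfkbib at 0.30 (SE 0.151, edgeR adjusted p = 0.999).

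The interaction asks whether the difference made by GDNF in place of BSA depended on the antibody in place of IgG. Nfkbia had the smallest unadjusted p of the 10 genes, with a log2 interaction of 0.63 (SE 0.240, 95% interval 0.12 to 1.13, edgeR adjusted p = 0.247), and Nfkb2 followed at 0.46 (SE 0.212, edgeR adjusted p = 0.289). Of the 10 genes 8 were above 0, against 48.9% of all tested genes. Without GDNF replicate 3 the estimates were 0.45 for Nfkbia (adjusted p = 0.301) and 0.27 for Nfkb2 (adjusted p = 0.382). With the GC and length trend subtracted they were 0.46 and 0.08, and with both changes 0.35 and 0.009. The median interaction of the 10 genes was 0.28, and 0.07 with the trend subtracted, each with 8 above 0. Without GDNF replicate 3 it was 0.15 with 7 above 0, and with both changes 0.02 with 6 above 0. Nfkbib and Rela were the only NF-kB genes to pass under any alternative, limma-voom with sample quality weights, added after seeing the data. It gave interactions of 0.56 (adjusted p = 0.0250) and 0.32 (adjusted p = 0.0426), and 21.4% of all tested genes passed. In the main edgeR fit these were 0.40 (adjusted p = 0.327) and 0.13 (adjusted p = 0.659). Over all alternatives Nfkbib ran from 0.02 to 0.56 and Rela from -0.20 to 0.32. The weights were 2.97 for GDNF replicate 2, against 0.380 and 0.137 for replicates 1 and 3.

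**Figure D4:**
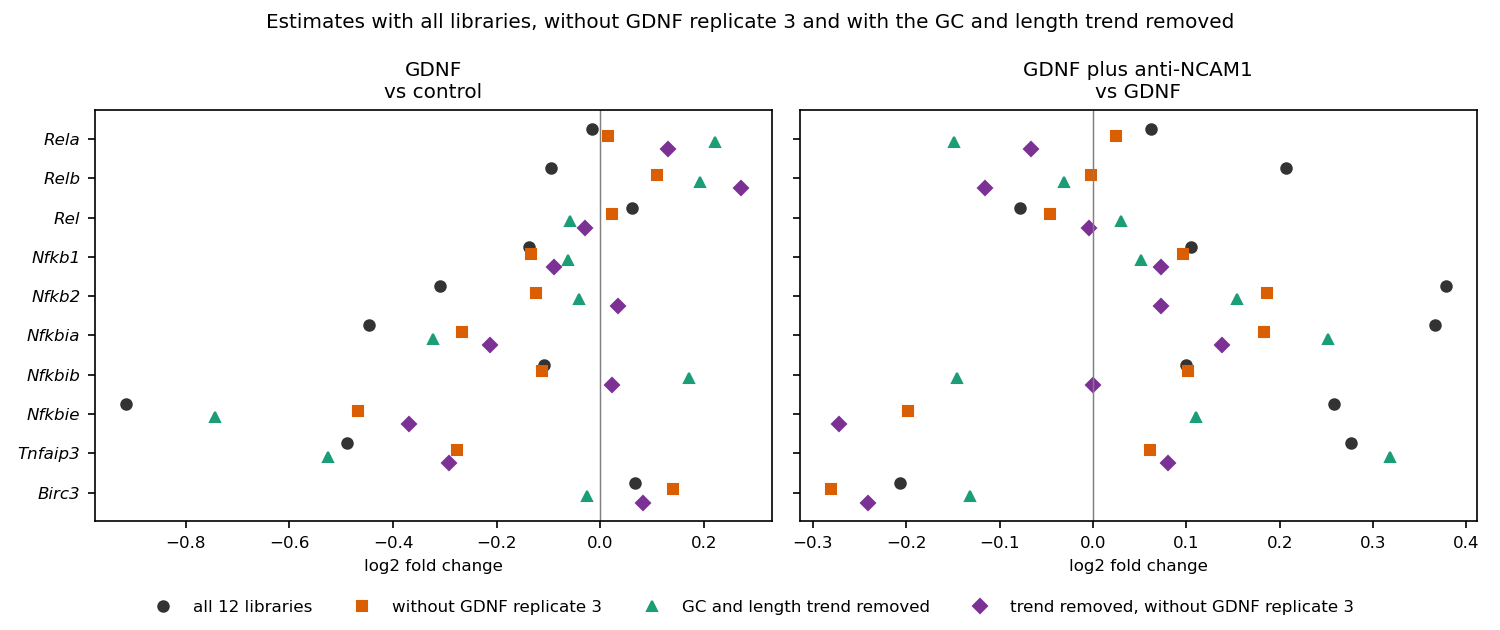
edgeR log2 fold changes of the 10 genes for GDNF against control (left) and the combination against GDNF (right) with all libraries, without GDNF replicate 3, after subtraction of each library's GC and length trend, and with both changes. Nfkbia stays below 0 on the left in all 4. Rela and Relb are positive there without GDNF replicate 3 as well as with the trend removed, while Nfkbib turns positive only once the trend is removed.

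After each library's GC and length trend was subtracted, the GDNF estimate for Nfkbia was -0.32 (edgeR adjusted p = 0.446), that for Nfkb2 -0.04, and those for Rela, Relb and Nfkbib 0.22, 0.19 and 0.17. The median of the 10 genes was then -0.05, with 7 below 0. With GDNF replicate 3 left out as well, it was -0.003 with 5 below 0. Over the 22 alternatives tried, the estimate for Nfkb2 turned sign in 1, at 0.03. The part of the GC trend and of the mitochondrial share in these results was not tested further.

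Across the 12 libraries, the genes most like Nfkbia in log2 CPM were Urgcp, Snord104, Map2k7, Ggact and Cnp (Pearson r = 0.895 to 0.934, and 0.700 to 0.822 over the 11 libraries without GDNF replicate 3). For Nfkb2 they were Rtel1, Slc4a2, Pnkd, Sqstm1 and Dcaf12 (r = 0.949 to 0.955, and 0.812 to 0.876). The correlation of Nfkbia with Nfkb2 was 0.79 over 12 libraries and 0.37 over 11. These are descriptions of points that share library, depth and composition.

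The rest of the pathway was read from 6 lists of 135 genes, of which 90 were tested. None passed in any comparison by edgeR (0 of 90), and in GDNF against control 18 of the 90 had an unadjusted p under 0.05 (20.3% of all tested genes), or 6 without GDNF replicate 3 (11.6% of all tested genes in that fit). Among receptors, 8 of 11 had a log2 fold change below 0 for GDNF against control (49.7% of all tested genes), with a median of -0.18 against 0.0021 for all genes. By edgeR 6 of the 11 had an unadjusted p under 0.05, 5 of them lower and 1 higher (20.3% of all tested genes). The lymphotoxin beta receptor Ltbr was at -0.35 (edgeR adjusted p = 0.174), the TWEAK receptor Tnfrsf12a at -0.50 (adjusted p = 0.202) and the TNF receptor Tnfrsf1a at -0.18 (adjusted p = 0.229). Without GDNF replicate 3 they were at -0.22, -0.23 and -0.15, and the list's median was -0.11. With the GC and length trend subtracted they were at -0.19, -0.28 and 0.01, so that Tnfrsf1a turned sign, and the median was -0.06. Il17rc, another receptor, averaged 18.4 ± 7.01 CPM in GDNF libraries and 26.9 ± 3.54 in controls (SD, n = 3 each). With the trend subtracted Il17rc was at -0.34, and at -0.17 with GDNF replicate 3 left out as well. For anti-NCAM1 against control the list's median was -0.10, again with 8 of 11 below 0 (48.9% of all tested genes) and 2 at an unadjusted p under 0.05 (5.29% of all tested genes), Tnfrsf1a at -0.20 and the interleukin-17 receptor Il17ra at -0.21 (edgeR adjusted p = 0.853 each).

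Upstream of the subunits, the IkB kinase complex and its activating kinases had a median of 0.04 over 12 tested genes for GDNF against control. Tab1, an adaptor of the kinase TAK1, averaged 32.0 ± 8.36 CPM in GDNF libraries and 44.5 ± 1.84 in controls (SD, n = 3 each), at -0.48 (edgeR adjusted p = 0.165) and -0.30 without GDNF replicate 3. The adaptor Tab2 averaged 162 ± 52.1 CPM in GDNF libraries and 124 ± 5.07 in controls (SD, n = 3 each), at 0.39 (edgeR adjusted p = 0.184), 0.08 without GDNF replicate 3 and -0.003 with the trend subtracted as well. Of the 24 adaptors and ubiquitin enzymes, whose median was -0.10, the scaffold Card10 was at -0.42 (adjusted p = 0.165), -0.33 without that library, -0.09 with the GC and length trend subtracted and -0.14 with both. Of 19 other negative regulators, whose median was 0.04, the Tnfaip3-binding protein Tax1bp1 was at 0.40 (adjusted p = 0.165), 0.18 without that library, 0.19 with the trend subtracted and 0.05 with both.

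Genes that NF-kB is known to induce split by level. Of 40, 21 were tested and 7 were listed at 0 in all 12 libraries, Il6 among them, with Cxcl1 at 0 to 1 counts. The tested ones included Sdc4 and Bcl2l1, at 309 and 99.8 CPM over all libraries pooled, scaled by total counts without TMM. Their median for GDNF against control was -0.09, with 15 of 21 below 0, -0.004 without GDNF replicate 3 and 0.02 with the GC and length trend subtracted. The adhesion molecule Icam1 averaged 3.66 ± 0.350 CPM in GDNF libraries and 5.15 ± 0.734 in controls (SD, n = 3 each), at -0.51 (edgeR adjusted p = 0.229), and -0.45 without GDNF replicate 3. Of 16 ligands 3 were tested; Tnf had 1 to 7 counts a library, and Il1a and Il1b were at 0.

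**Figure D5:**
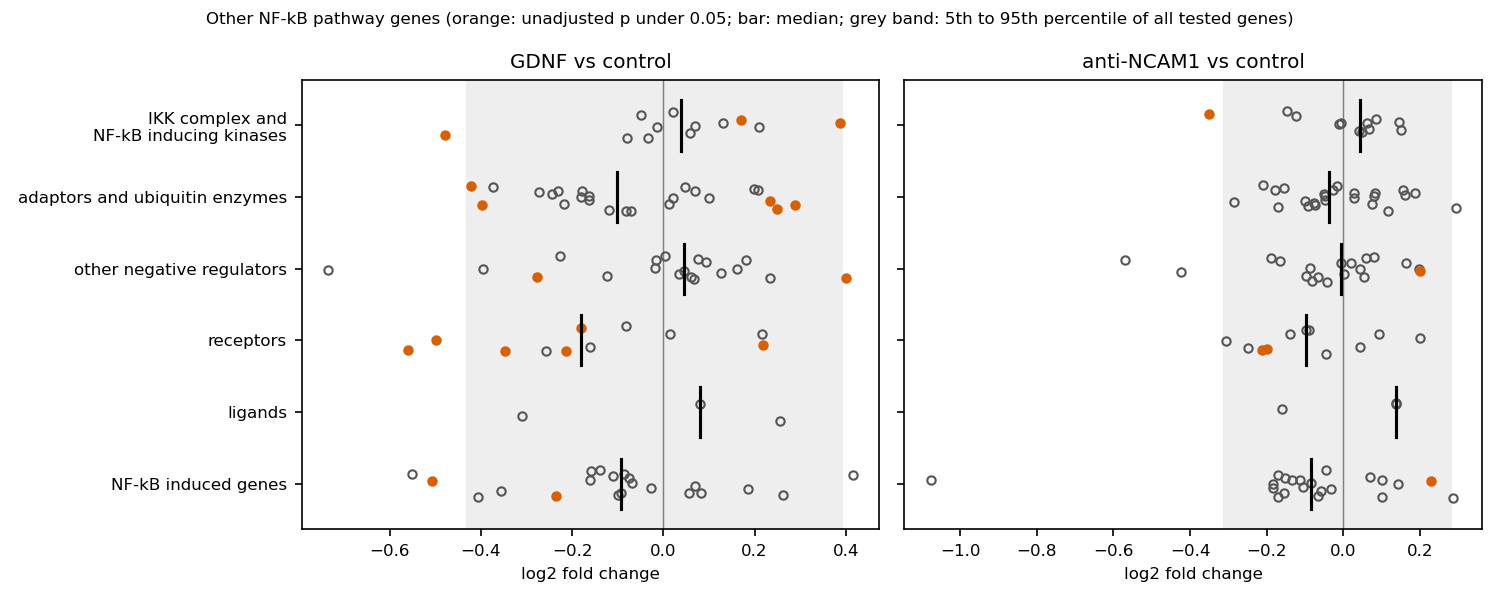
edgeR log2 fold changes of the 90 tested pathway genes for GDNF against control (left) and anti-NCAM1 against control (right), 1 point a gene, with each list's median as a bar. The receptor median lies at -0.18 for GDNF. The grey band of -0.43 to 0.39 runs between the outer 5% tails of all tested genes. It describes single genes and gives no measure for a list's median.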

How the data were processed

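Gene expression was measured by RNA-seq in 12 libraries, 4 groups of 3. The authors deposited raw counts per gene, whole numbers that were not scaled; kallisto 0.46.2, MultiQC and FastQC, and the builds mm10 and GRCm39 with no role, are listed per the submitters' processing notes. The annotation, strand use and treatment of multi-mapped reads are not given in the sources used here. A symbol was matched to 52081 of 55414 IDs, and the 3333 without one held 6.55% of counts.

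Genes passing edgeR's filterByExpr (minimum count 10, total 15) were TMM-scaled and fitted in 1 model of 4 groups with no covariate, by the quasi-likelihood F test (edgeR 4.0.16, R 4.3.3), 2-sided, adjusted by Benjamini-Hochberg within each of 6 comparisons at 0.05. Intervals are 95%. Simulated counts with known changes were used to check the fit. GC content and length trends were fitted by lowess (span 0.3) for 99.8% of tested genes. Log2 CPM used a prior count of 2.

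The named genes were all 10 members, and per pathway list any gene that passed and the 3 with the smallest p in GDNF against control and in anti-NCAM1 against control; of these the text gives some. Well-expressed or undetected induced genes and ligands were named after their values were seen. For likeness, the 5 genes most correlated with Nfkbia and with Nfkb2 were named. The members and lists were chosen with earlier results of these data known. Alternatives were DESeq2 1.42.0, limma-voom (limma 3.58.1), other scaling and filters, the compared groups alone, a replicate block, trend removal and omission of single libraries. Sample quality weights, and trend removal without GDNF replicate 3, were chosen after seeing the data.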

Additional observations from a re-analysis of the deposited data

How the results depend on the processing

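The count of NF-kB genes called was 0 under every alternative in all 6 comparisons, except 2 (Rela and Nfkbib) in the interaction under limma-voom with sample quality weights. Over the 60 estimates of single NF-kB genes and their 1310 alternative values, 2 came past the threshold and 91 changed sign with no call in either. A reversed call could not occur, as none of the 60 passed in the main fit. The count over all genes was 0 in each main comparison and moved as follows. Without a low-count filter it was 736 for GDNF against control, 8 for anti-NCAM1 against control, 4 for the combination against control, 348 for the combination against GDNF, 4 for the combination against anti-NCAM1 and 403 for the interaction. With sample quality weights these were 2614, 277, 0, 1462, 7 and 2425, with GDNF replicate 3 weighted 0.137, replicate 1 0.380 and replicate 2 2.97. On the compared groups alone, anti-NCAM1 against control gave 33, the combination against control 24 and the combination against anti-NCAM1 5. DESeq2 gave 31 for GDNF against control, adjusted over 1885 genes. With the trend removed and GDNF replicate 3 left out, the counts were 6 for GDNF against control, 51 for anti-NCAM1 against control, 1 for the combination against GDNF and 37 for the interaction. Leaving out each library gave 0 to 2714 for GDNF against control, 0 to 8 for anti-NCAM1 against control, 0 to 1990 for the combination against GDNF and 0 to 1887 for the interaction, and 0 in the other 2 comparisons. The 2714, 1990 and 1887 came without GDNF replicate 1, while without GDNF replicate 3 there were 8 calls for anti-NCAM1 against control and 14 in the interaction. Without replicate 1, Nfkbia was at -0.49 (edgeR adjusted p = 0.0636) for GDNF against control. The causes were not tested. Deviations of log2 CPM from the group mean were correlated between libraries of different groups. They ran at r = -0.147 to 0.101 over 18 same-numbered pairs and -0.197 to 0.283 over 36 other pairs. This gives no sign that the numbers pair the libraries but cannot exclude it. The replicate block called 0 genes in each comparison. Nfkbie (2 to 17 counts) and Tnfaip3 (5 to 18 counts) are limited by depth.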
